A study of Mus musculus with 12 samples.

Results

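The integrated stress response genes described here are 35 named genes, Atf4 and genes known as its targets, partners and feedback regulators, out of 54393 genes in the expression table. Each was looked up by its gene symbol in that table and in the table of splicing events. For 1 symbol the expression table held a second row, and the row tested by the authors was used. The cells were N2a Flp-In rtTA, a mouse neuroblastoma line with a single site for an inducible transgene. All 12 libraries carried a doxycycline-inducible FLAG-Sap30bp cDNA, with exon 3 of Sap30bp in one line (Ex3+) and without it in the other (Ex3-). Each line was studied in 3 conditions with 2 biological replicates each. Rescue cells received the Sap30bp siRNA and doxycycline, which induced an siRNA-resistant cDNA, knockdown cells received the same siRNA without doxycycline, and control cells received a non-targeting siRNA pool. Doxycycline was added 24 hours after transfection and cells were collected at 72 hours, with the wells of a condition combined. The control siRNA was not given together with doxycycline in the samples used here, so doxycycline and the induced isoform cannot be told apart, nor can the line and the isoform it carries.

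The integrated stress response is a shared answer of cells to amino acid shortage, endoplasmic reticulum stress, haem shortage and viral RNA. Each of these activates a kinase that phosphorylates the translation factor eIF2, which lowers most protein synthesis while Atf4 mRNA is translated more. The ATF4 protein then induces genes for amino acid import and synthesis, for further transcription factors and for feedback on the pathway itself. Because ATF4 is controlled mainly at translation, the level of Atf4 mRNA is not a measure of its protein.

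ATF4 binds together with C/EBP family partners to a composite element whose core is TGATGNAA. Read on either strand, this core was present in the RefSeq promoter windows (250 bases before to 50 after the annotated start, GRCm38.p6) of 8 of the 30 stress response genes in the promoter table, or 26.7%, against 1219 of 27025 genes, or 4.51%. The stricter form TGATGCAA was present in 6 of the 30 genes, against 279 of 27025 genes, or 1.03%. A match of these letters is a description of the window and not a measured binding site. Windows of 58 bases are shown for 4 genes that hold this stricter form. On knockdown, Atf3 rose in the Ex3+ line and Pycr1 fell in both lines, Chac1 passed no threshold, and Vldlr was not tested. Each is read on the strand of its gene, with the core in capitals; where the core lies on the opposite strand its reverse complement TTGCATCA appears.
Atf3 (chr1:191183411-191183468, minus strand, core 110 bases before the start): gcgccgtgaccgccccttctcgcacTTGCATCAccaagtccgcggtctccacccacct
Pycr1 (chr11:120643819-120643876, minus strand, core 103 bases before the start): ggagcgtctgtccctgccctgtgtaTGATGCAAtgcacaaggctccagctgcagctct
Chac1 (chr2:119351024-119351081, plus strand, core 193 bases before the start): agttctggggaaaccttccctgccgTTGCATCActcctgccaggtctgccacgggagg
Vldlr (chr19:27216795-27216852, plus strand, core 200 bases before the start): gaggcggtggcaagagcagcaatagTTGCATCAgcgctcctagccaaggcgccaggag
The other genes with a match were Trib3, Slc7a11, Asns and Nupr1.

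Expression was deposited as 1 RPKM value (reads per kilobase of transcript, scaled to the mapped reads of a library) for each of the 6 groups, so the spread between replicates and the depth behind these values are unknown. Of the 35 genes, 34 had at least 1 RPKM in every group and 10 had over 100 RPKM in every group. Vldlr, a lipoprotein receptor that ATF4 induces in other cells, was listed at 0.01 RPKM or lower in every group and was not tested by the authors. A gene is called changed where the authors' deposited table gives a false discovery rate (FDR) under 0.05, adjusted over the 21541 genes tested. Log2 ratios are taken between group RPKM values after adding 0.1, and describe these groups without an error. Sap30bp itself had 141 RPKM in rescue, 18.6 RPKM in knockdown and 33.6 RPKM in control cells of the Ex3+ line, and 196, 21.7 and 40.03 RPKM in rescue, knockdown and control cells of the Ex3- line. Of 14 neuroblastoma markers, 10 reached 1 RPKM in every group, and their summed level was 1213 to 1691 RPKM. The summed levels of 6 fibroblast markers (1.2 to 4.07 RPKM) and 3 endothelial markers (0.96 to 2.49 RPKM) were low, none of these markers reached 1 RPKM in every group, and both sums were highest in the control of the Ex3+ line. The part of these markers in the results was not tested. Fewer cells of a type and less RNA per cell cannot be told apart in such bulk libraries.

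Knockdown of Sap30bp changed a minority of the stress response genes, and not in one direction. In the Ex3+ line, 4 genes rose (Atf3, Ppp1r15a, Sesn2 and Trib3) and 2 genes fell (Pycr1 and Cbs), according to the authors' deposited table. These 6 of 34 tested genes are 17.6%, against 3.68% of all genes tested, of which 1.48% rose and 2.2% fell. Knockdown in the Ex3- line made 1 gene fall (Pycr1) and no gene rise in that table, which is 2.94% of the 34 genes, against 2.26% of all genes, of which 1.14% fell. At an unadjusted p under 0.05, the authors' deposited table held 9 of the 34 genes in the Ex3+ line, 26.5% against 13.6% of all genes, and 8 in the Ex3- line, 23.5% against 11.9%. The median log2 ratio of the 34 genes, knockdown over control, was 0.22 in the Ex3+ line with 23 genes above 0, and 0.06 in the Ex3- line with 20 genes above 0. By the fold changes of the authors' deposited table, 20 genes were above 0 in either line. Over all genes with a test the median log2 ratio was 0.0 in both lines, with 48.6% of them above 0 in either line.

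**Figure D1:**
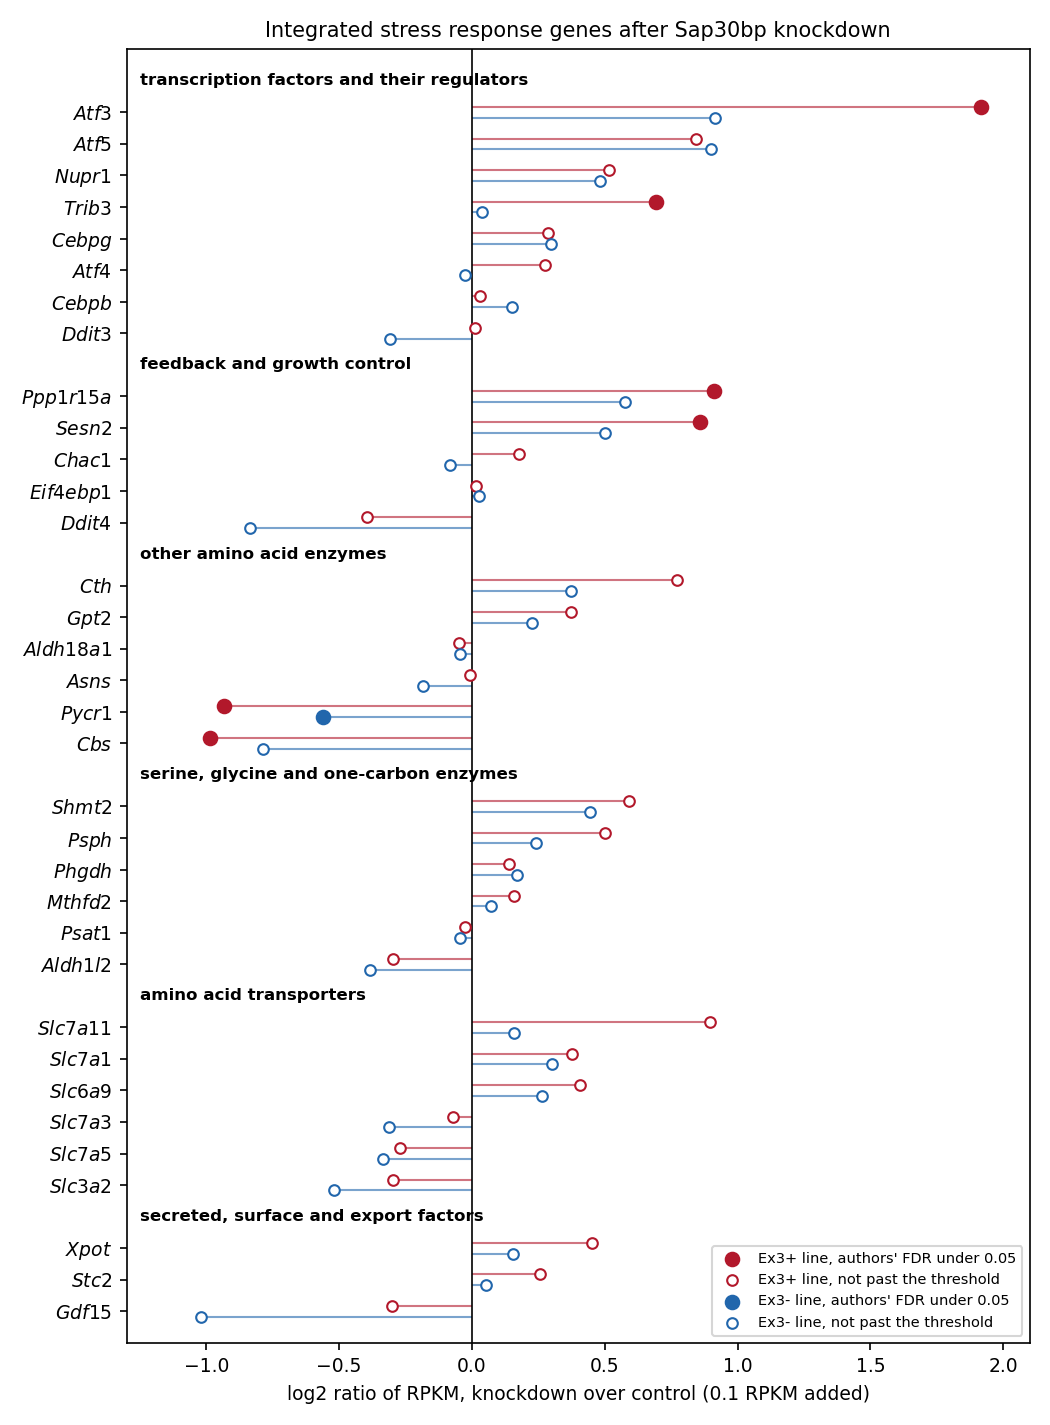
Log2 ratio of RPKM, knockdown over control, for the 34 tested genes grouped by role, in the Ex3+ line (red, upper point of each gene) and the Ex3- line (blue, lower point). Filled points passed the authors' FDR threshold: 6 genes in the Ex3+ line and Pycr1 in the Ex3- line.

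Among the 8 transcription factors and their regulators, Atf3 and Trib3 rose in the Ex3+ line and none passed the threshold in the Ex3- line. All 8 had a log2 ratio above 0 in the Ex3+ line (0.01 to 1.92, median 0.40) and 6 of 8 in the Ex3- line (median 0.22). By the fold changes of the authors' deposited table, 6 of 8 were above 0 in the Ex3+ line and 5 of 8 in the Ex3- line, with Ddit3 and Cebpb below 0 in both. Atf4 itself was abundant, at 331 RPKM in knockdown and 273 RPKM in control cells of the Ex3+ line. Its level in the Ex3- line was 309 RPKM in knockdown and 314 RPKM in control cells, and it passed no threshold in either line. Atf3, a stress-induced repressor and activator of the same leucine zipper class, had 7.12 RPKM in knockdown and 1.81 RPKM in control cells of the Ex3+ line. Its levels in the Ex3- line were 7.22 RPKM in knockdown and 3.78 RPKM in control cells. The 2 knockdown levels of Atf3 were thus close and its 2 control levels were apart. The authors' deposited table gave Atf3 a log2 fold change of 1.95 (FDR 2.38e-08) in the Ex3+ line and 0.80 (FDR 0.12) in the Ex3- line.

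Trib3, a pseudokinase that binds ATF4 and dampens it, had 44.4 RPKM in knockdown and 27.4 RPKM in control cells of the Ex3+ line. It rose there with a log2 fold change of 0.64 (FDR 0.0238) in the authors' deposited table. The Ex3- line had 44.5 RPKM of Trib3 in knockdown and 43.4 RPKM in control cells. Its knockdown levels in the lines were again near each other, and only the control of the Ex3+ line was low. Atf5, a factor whose translation is controlled much like that of ATF4, had 37.8 RPKM in knockdown and 21.1 RPKM in control cells of the Ex3+ line, and 29.7 against 15.9 RPKM in the Ex3- line. These are log2 ratios of 0.84 and 0.90, and Atf5 passed the FDR threshold in neither line. The authors' deposited table gave it log2 fold changes of 0.80 (FDR 0.113) in the Ex3+ line and 0.54 (FDR 0.471) in the Ex3- line. Ddit3, which encodes the death-promoting factor CHOP, had 82.5 RPKM in knockdown and 81.8 RPKM in control cells of the Ex3+ line, and 64.3 against 79.6 RPKM in the Ex3- line. Nupr1, a small stress-induced nuclear protein, had log2 ratios of 0.51 and 0.48 in the Ex3+ and Ex3- lines, and Cebpg, a partner of ATF4, 0.29 and 0.30, and neither passed. Cebpb, another gene of that family, had log2 ratios of 0.03 and 0.15 but log2 fold changes of -0.01 and -0.27 in the authors' deposited table, so its direction depends on the measure, and it did not pass. In GENCODE M21, Ddit3 overlaps a second gene entry of the same name. Atf5, Ddit3 and Cebpb each overlap a protein-coding gene on the other strand there. The sources used here do not give whether counting used strand, so their reads and those of the overlapping gene may be mixed.

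Of the 5 genes of feedback and growth control, Ppp1r15a and Sesn2 rose in the Ex3+ line. Ppp1r15a encodes GADD34, which directs a phosphatase to eIF2 and so ends the response. It had 29.0 RPKM in knockdown and 15.4 RPKM in control cells of the Ex3+ line, and 25.1 against 16.8 RPKM in the Ex3- line. The authors' deposited table gave it a log2 fold change of 0.90 (FDR 0.00289) in the Ex3+ line and 0.62 (FDR 0.117) in the Ex3- line; Ppp1r15a overlaps Tulp2 on the other strand. Sesn2, a leucine sensor that restrains the growth kinase mTORC1, had 23.9 RPKM in knockdown and 13.1 RPKM in control cells of the Ex3+ line. Sesn2 had 26.1 RPKM in knockdown and 18.4 RPKM in control cells of the Ex3- line. In the authors' deposited table its log2 fold changes were 0.81 (FDR 0.0098) in the Ex3+ line and 0.55 (FDR 0.198) in the Ex3- line. Both genes were thus at a higher level in knockdown than in control in each line, and past the threshold in one.

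Chac1, which degrades glutathione and is a widely used ATF4 target, had 30.5 RPKM in knockdown and 27.0 RPKM in control cells of the Ex3+ line, and 36.1 against 38.3 RPKM in the Ex3- line. Ddit4, another inhibitor of mTORC1, had 202 RPKM in knockdown and 265 RPKM in control cells of the Ex3+ line, and 202 against 361 RPKM in the Ex3- line. Its log2 ratios of -0.40 and -0.84 lay opposite to those of Sesn2, and neither passed the threshold. Eif4ebp1, which holds back cap-dependent translation, had log2 ratios of 0.01 and 0.03.

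The 6 enzymes of other amino acid pathways held both genes that fell. Pycr1, which makes the last step of proline synthesis in mitochondria, had 28.2 RPKM in knockdown and 53.9 RPKM in control cells of the Ex3+ line. Knockdown cells of the Ex3- line had 34.3 RPKM of Pycr1, against 50.7 RPKM in control cells. It fell in either line according to the authors' deposited table, with log2 fold changes of -1.09 (FDR 4.26e-06) in the Ex3+ line and -0.66 (FDR 0.0293) in the Ex3- line. Pycr1 was the only one of the 34 genes past the FDR threshold in both lines. Cbs, which joins homocysteine and serine in the pathway to cysteine, had 4.82 RPKM in knockdown and 9.66 RPKM in control cells of the Ex3+ line, and 7.29 against 12.7 RPKM in the Ex3- line. The authors' deposited table gave Cbs log2 fold changes of -0.81 (FDR 0.0237) in the Ex3+ line and -0.70 (FDR 0.0841) in the Ex3- line.

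Cth, the enzyme that follows CBS in cysteine synthesis, had 30.8 RPKM in knockdown and 18 RPKM in control cells of the Ex3+ line, and 26.4 against 20.4 RPKM in the Ex3- line. Its log2 ratios of 0.77 and 0.37 had the opposite sign to those of Cbs, although Cth passed the threshold in neither line (FDR 0.198 for Ex3+ in the authors' deposited table). Asns, which makes asparagine and is among the best known ATF4 targets, was the most abundant of the 35 genes in rescue and knockdown cells of both lines. It had 474 RPKM in knockdown and 478 RPKM in control cells of the Ex3+ line, and 470 against 534 RPKM in the Ex3- line. Gpt2, a mitochondrial alanine aminotransferase, had log2 ratios of 0.37 and 0.23, and Aldh18a1, which acts before PYCR1 in proline synthesis, -0.05 and -0.05.

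No serine, glycine or one-carbon enzyme passed the threshold within a line. Shmt2, which makes glycine in mitochondria, had log2 ratios of 0.59 in the Ex3+ line and 0.44 in the Ex3- line, and Psph, which completes serine synthesis, 0.50 and 0.24. The RPKM of Shmt2, which overlaps Ndufa4l2 on the other strand, moved more than its fold change in the authors' deposited table, which was 0.30 on the log2 scale in the Ex3+ line. The other enzymes of serine synthesis, Phgdh (which has an annotated pseudogene copy that may share its reads) and Psat1, and the mitochondrial folate enzyme Mthfd2 lay between -0.05 and 0.17 on the log2 ratio in both lines. Aldh1l2, a mitochondrial folate enzyme, had 19.6 RPKM in knockdown and 24.1 RPKM in control cells of the Ex3+ line, and 27.7 against 36.1 RPKM in the Ex3- line. Its log2 ratios of -0.30 and -0.38 were thus alike in sign, and Aldh1l2 overlaps a coding gene on the other strand.

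The 6 amino acid transporters split by sign and none passed the threshold. Slc7a11, which imports cystine, had the highest log2 ratio of them in the Ex3+ line, 0.90 at 4.37 RPKM in knockdown and 2.30 RPKM in control cells (FDR 0.0644 in the authors' deposited table). It passed there when the p-values were adjusted over genes with at least 1 RPKM in a group. Its log2 ratio in the Ex3- line was 0.16. The cationic amino acid carrier Slc7a1 had log2 ratios of 0.38 and 0.30 in the Ex3+ and Ex3- lines, and the glycine carrier Slc6a9 0.41 and 0.26, the second of which was 0.01 as a log2 fold change in the authors' deposited table. Slc7a5 and Slc3a2, the chains of the large neutral amino acid carrier, had values of the other sign, -0.27 and -0.33 for Slc7a5 and -0.30 and -0.52 for Slc3a2. Slc7a3, another cationic carrier, had -0.07 and -0.31. Slc7a5 and Slc6a9 also overlap coding genes on the other strand.

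Of the secreted and export factors, Gdf15, a secreted stress signal, had 12.7 RPKM in knockdown and 15.7 RPKM in control cells of the Ex3+ line, and 8.40 against 17.2 RPKM in the Ex3- line. It had the lowest log2 ratio of all 34 genes in the Ex3- line, -1.02, and passed no threshold. The tRNA exporter Xpot had log2 ratios of 0.45 and 0.15, and Stc2, a secreted glycoprotein, 0.26 and 0.05.

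When the p-values of both lines were combined per gene with their signs (Stouffer's method, added after the data were seen, adjusted over all 21541 genes), 8 of the 34 genes passed an adjusted p of 0.05. These are 23.5%, against 10.6% of all genes, of which 4.24% were higher and 6.38% lower. Atf3 (adjusted p 6.53e-09), Ppp1r15a (5.03e-05), Sesn2 (0.00039), Atf5 (0.0169) and Trib3 (0.0497) were higher in knockdown, and Pycr1 (1.66e-08), Cbs (0.000241) and Aldh1l2 (0.049) were lower, all from the p-values of the authors' deposited table. Ddit3, Asns and Chac1 had combined adjusted p-values of 0.701, 0.803 and 0.965. The difference of the lines' signed z scores passed for none of the 34 genes, against 0.00928% of all genes. The lowest unadjusted p of that difference was 0.00839 for Atf3 (adjusted p 1), followed by 0.0438 for Trib3, and these 2 of the 34 were under an unadjusted 0.05, 5.88% against 1.25% of all genes. A larger change in the Ex3+ line was therefore not shown for any of the 34 genes.

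**Figure D2:**
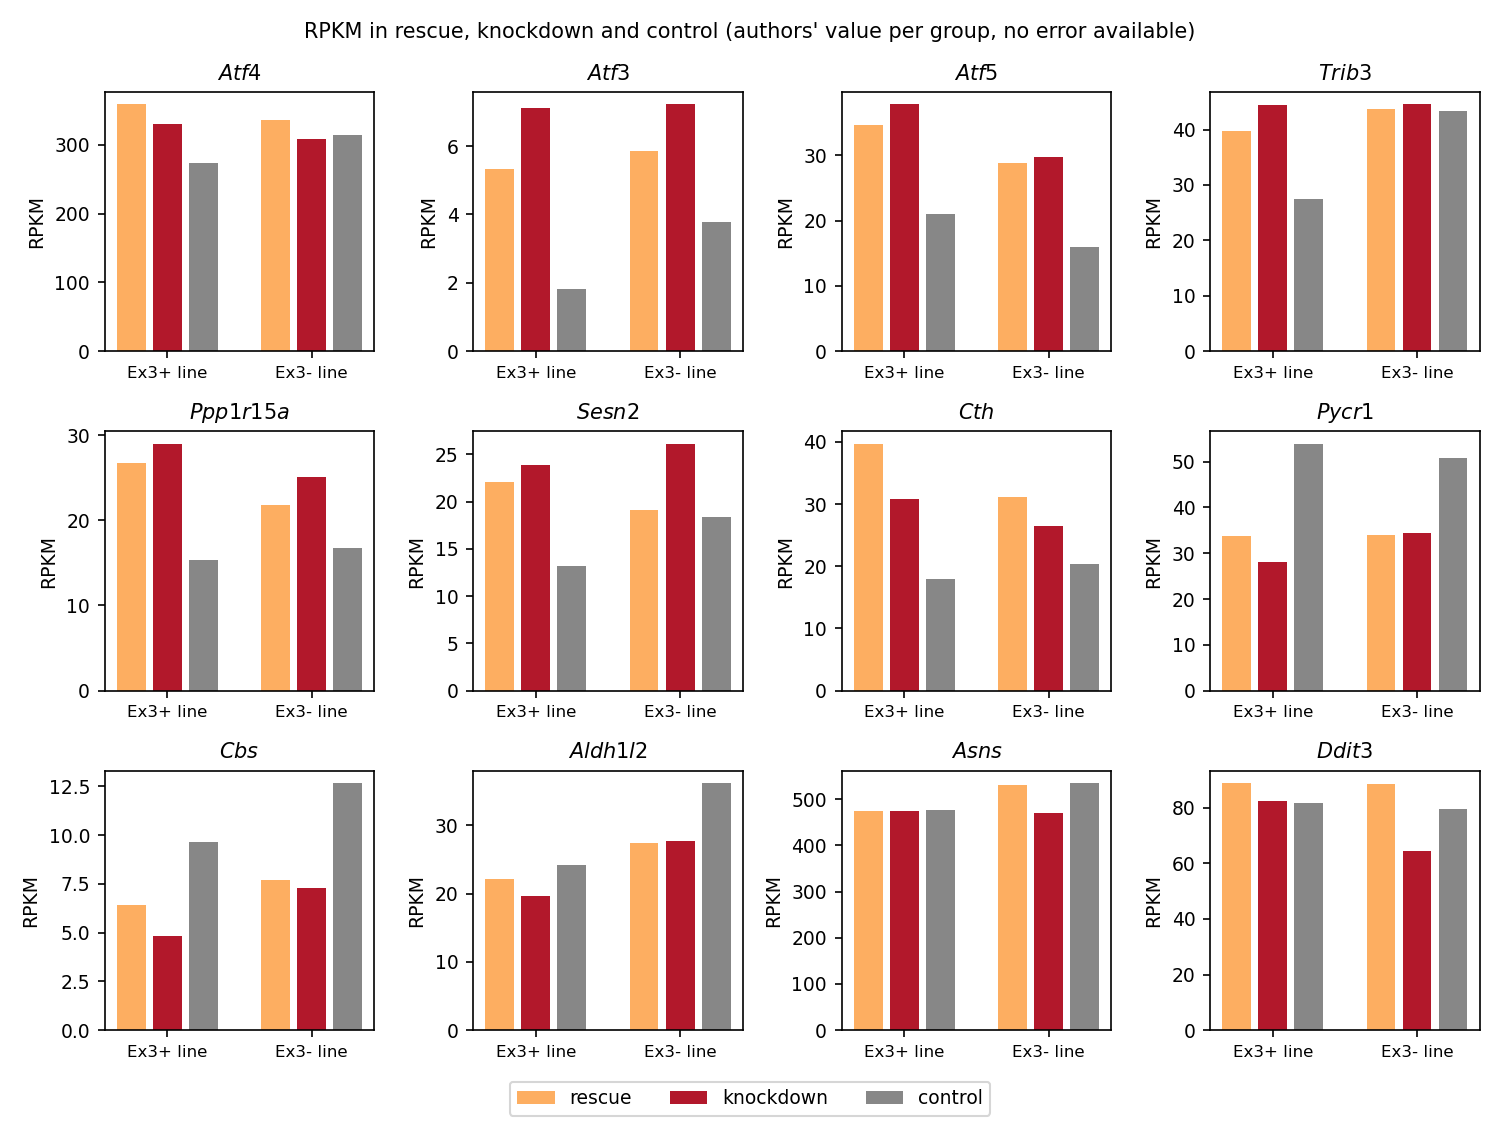
RPKM of 12 of the genes in rescue (orange), knockdown (red) and control cells (grey) of the Ex3+ and Ex3- lines, 1 bar for each group value, with no error available. Pycr1 and Cbs stand lower in rescue and knockdown than in control in both lines, whereas Asns and Ddit3 stand at like levels in the 3 conditions of the Ex3+ line.

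None of the 34 genes passed the threshold when rescue was set against knockdown. The authors' deposited table held 0 of 34 genes under an FDR of 0.05 in both, against 0.00464% of all genes in the Ex3+ line and 0.0232% in the Ex3- line. At an unadjusted p under 0.05 that table held 1 of the 34 genes in each line, 2.94% against 1.33% of all genes in the Ex3+ line and 5.98% in the Ex3- line. Combining the lines called 0 of 34 genes as well, against 0.0186% of all genes, with unadjusted p-values of 0.0255 for Sesn2, 0.0445 for Atf3 and 0.047 for Pycr1. Few genes of any kind passed in this comparison, so it says little about the stress response genes in particular.

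All 6 genes called on knockdown in the Ex3+ line had a rescue level between knockdown and control there, a comparison that reuses the knockdown libraries by which they were called. Atf3 had 5.33 RPKM in rescue, 7.12 RPKM in knockdown and 1.81 RPKM in control cells of the Ex3+ line, and 5.86, 7.22 and 3.78 RPKM in rescue, knockdown and control cells of the Ex3- line. Pycr1 had 33.7 RPKM in rescue, 28.2 RPKM in knockdown and 53.9 RPKM in control cells of the Ex3+ line. Its level in rescue cells of the Ex3- line, 33.9 RPKM, was next to that in knockdown, 34.3 RPKM. The authors' deposited table gave Pycr1 in the Ex3- line log2 fold changes of 0.22 for rescue over knockdown and -0.44 for rescue over control, neither past the threshold. Sesn2 had 22.1 RPKM in rescue and 23.9 RPKM in knockdown cells of the Ex3+ line, and 19.1 against 26.1 RPKM in the Ex3- line, where control cells had 18.4 RPKM. Cth stood apart from this order, since its rescue levels of 39.7 RPKM in the Ex3+ line and 31.1 RPKM in the Ex3- line were the highest of the 3 conditions. Ddit3 had 88.7 RPKM in rescue and 64.3 RPKM in knockdown cells of the Ex3- line, and Ddit4 had 320 and 202 RPKM, with log2 ratios of 0.46 and 0.67 that did not pass.

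Against control, rescue cells of the Ex3+ line had 3 genes higher (Atf3, Cth and Ppp1r15a) and 1 gene lower (Pycr1) in the authors' deposited table, 11.8% of the 34 genes against 2.27% of all genes, of which 0.97% were higher and 1.3% lower. The log2 fold changes in the authors' deposited table were 1.35 for Atf3 (FDR 0.000807), 1.11 for Cth (FDR 0.0262), 0.78 for Ppp1r15a (FDR 0.0222) and -0.77 for Pycr1 (FDR 0.00512). Rescue cells of the Ex3- line had 0 of 34 genes past the FDR threshold in that table, against 0.924% of all genes. At an unadjusted p under 0.05 it held 4 of them, 11.8% against 8.22% of all genes. With both lines combined, 6 of 34 genes passed, 17.6% against 5.07% of all genes (1.81% higher and 3.27% lower), with Atf3, Atf5, Cth and Ppp1r15a higher and Cbs and Pycr1 lower in rescue. Rescue and knockdown were compared with the same control libraries, so these values are not independent of those for knockdown.

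The lines themselves were compared within each condition. In control cells, where the transgene was not induced, 3 of 34 genes were lower in the Ex3+ line and none was higher in the authors' deposited table, 8.82% against 3.73% of all genes, of which 1.91% were lower. Atf3 had 1.81 RPKM in the Ex3+ and 3.78 RPKM in the Ex3- line (log2 fold change -1.08, FDR 0.0111, authors' deposited table). Trib3 had 27.4 RPKM in the Ex3+ and 43.4 RPKM in the Ex3- line (-0.62, FDR 0.0309, authors' deposited table), and Aldh1l2 had 24.1 and 36.1 RPKM (-0.70, FDR 0.0324, authors' deposited table). The log2 ratio, Ex3+ over Ex3-, was below 0 for 27 of 34 genes in control cells, with a median of -0.19. In knockdown cells 19 of 34 were below 0, with a median of -0.01, and in rescue cells 23 of 34, with a median of -0.13. By the fold changes of the authors' deposited table, 16 of 34 were below 0 in knockdown cells. Over all genes tested the median log2 ratio was 0.0 in each condition. Of all genes, 48.5% were above 0 in control, 47.4% in knockdown and 48.6% in rescue cells. The authors' deposited table held 0 of 34 genes past the threshold in rescue, against 3.29% of all genes, and 0 of 34 in knockdown, against 2.9%. At an unadjusted p under 0.05 it held 1 of the 34 in rescue (2.94% against 11.9% of all genes), 2 in knockdown (5.88% against 12.2%) and 7 in control (20.6% against 11.5%). Atf3 and Trib3, which rose on knockdown in the Ex3+ line, are thus genes whose control level was lower in that line. These comparisons share their control libraries.

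**Figure D3:**
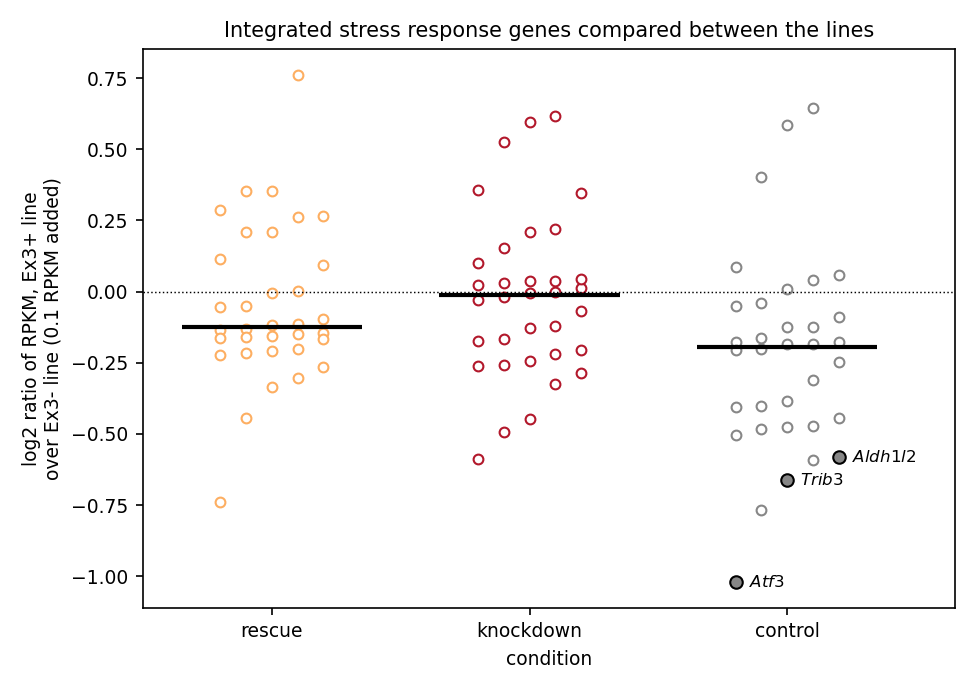
Log2 ratio of RPKM, Ex3+ over Ex3- line, for the 34 tested genes in rescue, knockdown and control cells. Each circle is a gene and each bar the median (-0.13, -0.01 and -0.19); filled, named points passed the authors' FDR threshold.

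The neighbouring arms of the pathway were read from lists of genes outside the 35. Of 8 tested eIF2 kinases and sensors, 1 rose on knockdown in the Ex3+ line, where 1.48% of all genes rose. None passed in the Ex3- line, against 2.26% of all genes. The gene that rose was Impact, an inhibitor of the amino acid sensing kinase GCN2. It had 193 RPKM in knockdown and 126 RPKM in control cells of the Ex3+ line (FDR 0.0303 in the authors' deposited table). The kinases themselves did not pass. Their log2 ratios in the Ex3+ and Ex3- lines were 0.06 and 0.04 for Eif2ak4 (GCN2) and -0.11 and -0.07 for Eif2ak3 (PERK). Those of Eif2ak2 were -0.27 and -0.28, and those of Eif2ak1 0.15 and 0.15. Oma1, a sensor at 1.43 to 2.53 RPKM, had -0.24 and -0.78 and did not pass either. A list of 15 genes held subunits of eIF2, eIF2B and the eIF2 phosphatases, and the separate factors Eif2a, Eif2d, Denr and Mcts1. None of these genes passed in either line, and none of 20 cytosolic aminoacyl-tRNA synthetases did. The same held for 21 unfolded protein response genes of the endoplasmic reticulum, 10 mitochondrial stress and heat shock genes and 13 ATF4 partners and regulators. Of all genes tested, 3.68% passed in the Ex3+ line and 2.26% in the Ex3- line. Lists this short therefore say little when no gene is called. The synthetases, many of them ATF4 targets, had log2 ratios above 0 for 16 of 20 genes in the Ex3+ line (median 0.14). In the Ex3- line 14 of 20 were above 0 (median 0.13). Over all genes tested, 48.6% were above 0 in either line. The unfolded protein response genes had medians of -0.01 and -0.17, with 9 of 21 above 0 in the Ex3+ line and 8 of 21 in the Ex3- line. The largest mean changes among them were those of Sdf2l1 (-0.48 and -0.57), Hsp90b1 (-0.39 and -0.41) and Calr (-0.30 and -0.49). Hspa5, the chaperone BiP, had log2 ratios of the other sign, 0.20 and 0.08.

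Splicing was deposited per library, as the percentage of a gene's transcripts in which an exon is included, an intron kept or a splice site used. It held 548 entries of 34 of the genes, and none of Cebpb. Of these, 51 events in 20 genes were measured in each of the 12 libraries with a mean of 2 to 98 percent, and were tested with limma beside all 28980 such events. Most stress response events lay outside these bounds, since 145 exons had a mean over 98 percent and 116 introns a mean under 2 percent. An event is called where the adjusted p is under 0.05 and the difference is at least 15 percentage points. Knockdown called 1 of the 51 events, an exon of Pycr1 in the Ex3+ line, against 0.338% of all events there. It called 0 of 51 in the Ex3- line, against 0.0207%, and over the mean of both lines 0 of 51, against 1.48%. At an unadjusted p under 0.05, limma gave 4 of the 51 events in the Ex3+ line, 7.84% against 13.5% of all events. It gave 1 event in the Ex3- line, 1.96% against 10.5%, and 6 over the mean of both lines, 11.8% against 19.1%.

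The Pycr1 exon has 93 nt and lies at chr11:120502743-120502835 on mm9. It was matched to exon 6 of 8 of a GENCODE M21 transcript by its length and by the lengths of its flanking introns, 128 and 123 nt. On GRCm38 it lies at chr11:120641429-120641521 on the minus strand. It is coding and holds 31 codons without a remainder, so leaving it out keeps the reading frame. The exon is shown because it was the only called event, in capitals with the 20 bases of the neighbouring exons on either side.
Pycr1 exon 6: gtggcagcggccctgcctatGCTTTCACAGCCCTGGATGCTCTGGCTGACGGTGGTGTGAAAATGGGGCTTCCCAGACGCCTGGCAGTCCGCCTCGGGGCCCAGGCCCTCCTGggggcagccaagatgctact
In the Ex3+ line its inclusion was 91.3 and 87.9 percent in the rescue libraries, 85.5 and 77.97 percent in the knockdown libraries and 98.2 and 97.4 percent in the control libraries. In the Ex3- line it was 93.6 and 99.1 percent in rescue, 93.4 and 92.8 percent in knockdown and 99.3 and 96.2 percent in control. Both knockdown libraries thus lay below both control libraries in each line, and the rescue libraries lay between them in the Ex3+ line.

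Inclusion of the Pycr1 exon fell by 16.1 percentage points on knockdown in the Ex3+ line (SE 2.76, limma adjusted p 0.0392). The difference in the Ex3- line was -4.67 points (SE 2.76, limma adjusted p 0.625). The difference between these values was -11.4 points (SE 3.90, limma adjusted p 1, unadjusted p 0.014). Over the mean of both lines the difference was -10.4 points (SE 1.95, limma adjusted p 0.0172), which is under the 15 points needed for a call. The call in the Ex3+ line was near its limits. It was lost when any of 8 single libraries was left out, namely either control library or either rescue library of the Ex3+ line, knockdown replicate 2 of that line, either control library of the Ex3- line or rescue replicate 1 of that line. The difference stayed between -19.8 and -12.3 points over 17 alternatives, with adjusted p-values from 0.0199 to 0.282. The authors' deposited table of splicing events lists this exon with a change of -16.1 points and a call for knockdown in the Ex3+ line, and without a call for their other comparisons. Rescue against knockdown in the Ex3+ line gave a difference of 7.88 points (SE 2.76, limma adjusted p 0.625) for this exon. The introns on either side of it were kept in few transcripts, 0.72 to 7.25 percent of those measured in any library, and neither passed.

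**Figure D4:**
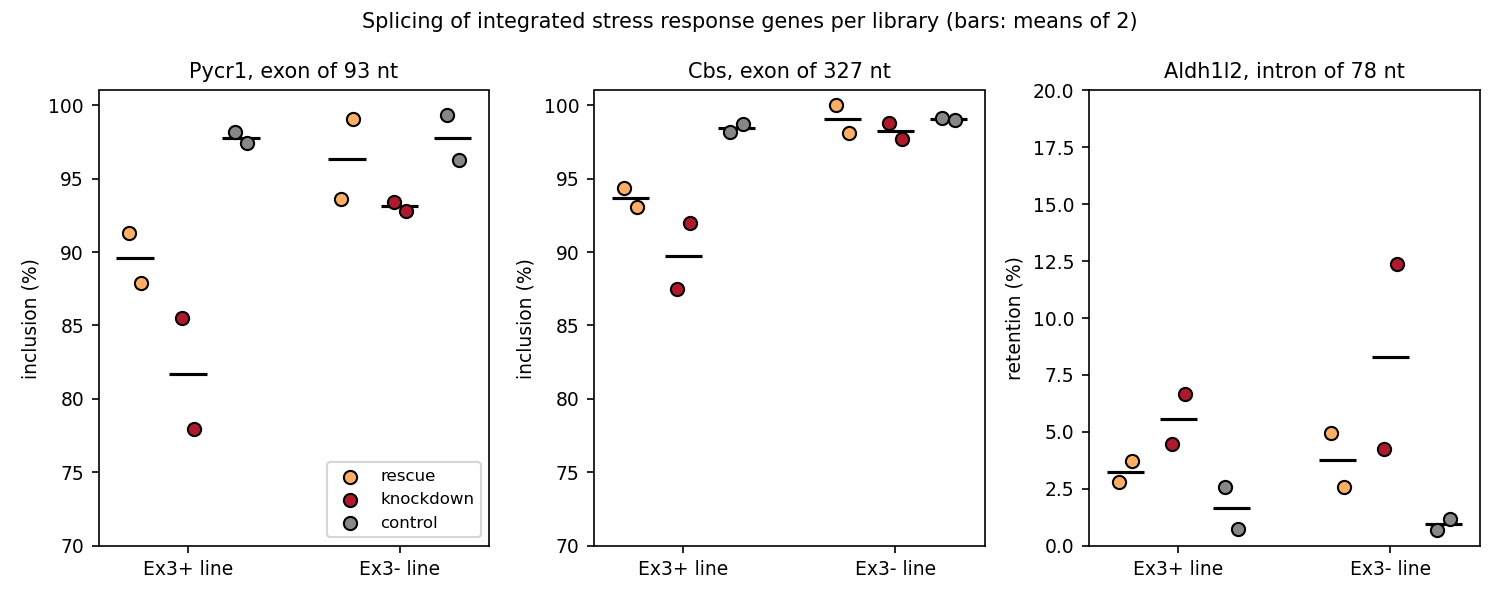
Percent inclusion of the Pycr1 exon of 93 nt and the Cbs exon of 327 nt, and percent retention of the Aldh1l2 intron of 78 nt, in rescue, knockdown and control libraries of the Ex3+ and Ex3- lines. Points are libraries and bars the means of 2; the inclusion axes start at 70 percent, and the knockdown libraries of Pycr1 in the Ex3+ line, at 85.5 and 77.97 percent, are the lowest points of that plot.

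The other 2 genes that were lower in knockdown over both lines combined also had events with low p-values, although none was called. A Cbs exon of 327 nt (chr17:31769773-31770099, mm9) was included at 94.3 and 93.04 percent in rescue, 87.5 and 92.0 percent in knockdown and 98.2 and 98.7 percent in control libraries of the Ex3+ line. All 6 libraries of the Ex3- line lay between 97.7 and 100.0 percent. The difference on knockdown was -8.73 points in the Ex3+ line (SE 1.88, limma adjusted p 0.0709) and -0.84 points in the Ex3- line (SE 1.88, limma adjusted p 0.937). An intron of 78 nt in Aldh1l2 was kept at 2.78 and 3.70 percent in rescue, 4.48 and 6.67 percent in knockdown and 2.56 and 0.74 percent in control libraries of the Ex3+ line. Retention in the Ex3- line was 4.95 and 2.56 percent in rescue, 4.23 and 12.4 percent in knockdown and 0.70 and 1.19 percent in control libraries. Every knockdown library thus lay above every control library of either line for this intron, with a mean difference of 5.64 points (SE 1.64, limma adjusted p 0.0861). The same order was seen for an intron of 144 nt in Slc7a3, a gene whose level passed no threshold. Its retention was 2.68 to 5.56 percent in knockdown and 0.46 to 2.24 percent in control libraries. Other Aldh1l2 introns differed in both directions, from -2.16 to 2.86 points over the mean of both lines. That the Cbs and Aldh1l2 events lie in genes of lower level in knockdown was seen after the data were examined, and no test links them. Over the mean of both lines, 6 of the 51 events had an unadjusted limma p under 0.05, 11.8% against 19.1% of all events. Not all of the 6 are shown. In Shmt2, whose log2 ratios were above 0, an alternative 3' splice site was used at 76.2 and 75.7 percent in knockdown libraries of the Ex3+ line. Its control libraries had 73.2 and 72.8 percent there.

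Among tested introns, the median change in retention in the stress response genes was close to that over all introns. Of 31 tested introns, 23 had a higher retention in knockdown than in control over the mean of both lines, with a median difference of 1.08 points, against a median of 0.82 points and 64.9% higher among all 17096 tested introns. Without the bounds on the mean, 147 introns of these genes had a value in all libraries, and none differed by 15 points, against 0.57% of all introns. Their median difference was 0.178 points, against 0.055 points over all introns with a value in all libraries. Short introns differed most among all introns, with 4.24% of those under 100 nt at 15 points or more. Only 9 of the 147 were that short, and the largest difference among them was the 5.64 points of the Aldh1l2 intron. Rescue against knockdown called 0 of the 51 events in both lines, against 0.0% of all events in the Ex3+ line and 0.00345% in the Ex3- line. At an unadjusted p under 0.05, limma gave 3 of the 51 in the Ex3+ line, 5.88% against 6.84% of all events, and 0 in the Ex3- line, against 8.57%. Rescue against control also called 0 of the 51 in both lines, against the same shares of all events. By limma, 3 of the 51 in the Ex3+ line (5.88%, against 8.39% of all events) and 0 in the Ex3- line (against 5.58%) had an unadjusted p under 0.05.

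Outside the 35 genes, the genes whose levels over the 6 groups were most like the mean pattern of the 34 were Caap1 (Pearson's r 0.989), Ifrd1 (0.982), Igfbp6 (0.98), Nadk (0.979) and Gtf2h4 (0.977). These r describe 6 group values that share their libraries, and 85 of 11930 genes compared had an r over 0.9. Ifrd1 had 66.6 RPKM in rescue, 65.0 RPKM in knockdown and 45.2 RPKM in control cells of the Ex3+ line, and 88.0, 74.4 and 68.8 RPKM in rescue, knockdown and control cells of the Ex3- line. The control of the Ex3+ line was the lowest group for Ifrd1 as for the mean pattern, a likeness by which Ifrd1 was chosen.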

How the data were processed

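The 12 stranded polyA libraries used 1000 ng of RNA each and had inserts of 540 nt on average, per the labels' protocols. Gene expression comes from the authors' deposited table, which holds 1 RPKM value per group and, for each of the authors' comparisons, the log2 fold change with its p-value and FDR. Salmon 0.14.1 and edgeR on mm9 are named in the submitters' processing notes; the sources used here give neither its settings nor how replicates were combined into an RPKM value. The percent spliced in values were made per library by the authors with vast-tools on mm9, per the file headers, and a further deposited table gives the authors' score for the change of selected events, in percentage points. Because RPKM was deposited per group, the authors' FDR (threshold 0.05) is used for calls, and no count test was run.

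Log2 ratios were computed with Python 3.11.15 after adding 0.1 RPKM. Splicing was tested with limma 3.58.1 in R 4.3.3 (6 group means, trended and robust variances, Benjamini-Hochberg adjustment over 28980 events), after tests on simulated data. Nothing in the labels ties replicates to separate days or batches, so p-values measure the spread between these libraries. The depth behind RPKM and percentages is unknown, and no interval is given. All 54393 gene IDs were matched to GENCODE M21 for overlaps between genes. A further list of cell type markers is not reported here.

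The genes, the gene lists, the role groups and the tests were chosen with earlier results of these data known. Genes named with values are Atf4, Ddit3, Atf3, Asns, Trib3 and Chac1, every gene past a threshold, and the 4 highest and 4 lowest mean log2 ratios on knockdown; others are given to complete a role group. Alternatives were another pseudocount, a filter on low values, a looser FDR, the combined p of both lines, other filters and scales for splicing, each library left out, and the replicate number as a block.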

Additional observations from a re-analysis of the deposited data

How the results depend on the processing

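The medians of the log2 ratios moved by less than 0.1 under a pseudocount of 1 RPKM and under a filter on low values. At an FDR under 0.1 in the authors' deposited table, knockdown called 2 of the 34 genes in the Ex3- line (Cbs and Pycr1) in place of 1, or 5.88% against 3.52% of all genes. In the Ex3+ line the same limit called 7 in place of 6 on knockdown, with Slc7a11 added (20.6% against 5.39% of all genes), and 5 in place of 4 for rescue against control, with Sesn2 added (14.7% against 3.2%). Adjusting the p-values over the 13647 genes with at least 1 RPKM in any group called these 7 and 5 genes in the Ex3+ line, against 5.56% and 2.98% of those genes. By the combined p of both lines, an alternative chosen after seeing the data, 8 of the 34 genes were called, in place of the 1 gene past the authors' FDR in both lines. Over the mean of both lines, a threshold of 10 points in place of 15 called 1 splicing event, the Pycr1 exon, in place of 0. The call of this exon in the Ex3+ line, 1 event, became 0 without the filter on the mean percentage, 0 with values needed in at least 10 of 12 libraries and 0 on the logit scale. Leaving out 1 library at a time gave 0 to 1 called event there, and 8 of the 12 omissions ended the call; the cause was not tested. The calls over all events, beside which the stress response events were read, moved as well. On knockdown in the Ex3+ line they were 98, and 0 to 144 with 1 library left out: 0 without either control library of that line, 15 without either control library of the Ex3- line, 32 without knockdown replicate 2, 59 without rescue replicate 2 and 47 without rescue replicate 1 of the Ex3- line. In the Ex3- line they were 6, and 206 without its knockdown replicate 1 but 0 to 4 without any other library. Over the mean they were 430, and 168 to 577, with the values furthest below it 168 and 176 without control replicate 1 of the Ex3- and Ex3+ lines and 221 without knockdown replicate 2 of the Ex3- line. Rescue against knockdown called 23 of all events in place of 1 in the Ex3- line without its knockdown replicate 1, and up to 8 in place of 0 in the Ex3+ line. Without the filter on the mean percentage, knockdown called 11 of all events in the Ex3+ line and 55 over the mean, and on the logit scale 53 in the Ex3+ line.

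The labels do not tie a replicate number to a day or batch. The correlation of same-numbered deviations was 0.042 to 0.31 over 15 pairs of groups, over 0.1 in 12 of them and 0.149 to 0.31 in the 6 pairs within a line. The pairs that were not over 0.1 were all between lines. The main fit used no pairing, because the labels give none, and whether same-numbered libraries share a day or batch was not tested. The shares of all events called on knockdown, given above, come from this unpaired fit and are lower than with the replicate block. With the replicate block, the Pycr1 exon remained called in the Ex3+ line (-16.1 points, limma adjusted p 0.0317), and over all events knockdown called 273 in place of 98 there, 103 in place of 6 in the Ex3- line and 514 in place of 430 over the mean. The block changed no other call among the 51 events.

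With 1 RPKM value per group, leaving out a library was not possible for expression, and the unknown depth limits statements on genes at a few RPKM, such as Atf3, Slc7a11, Cebpb and Cbs.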
